A study of Rattus norvegicus with 30 samples.

Results

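The comparison set the testes of 3 male Fischer rats killed 12 h after a single gavage of MEHP, animals 57, 58 and 59, against those of 3 rats killed 12 h after corn oil alone, animals 60, 61 and 62. These 6 arrays were chosen by their labels from a series of 30 (10 groups of 3, MEHP or corn oil at 1, 2, 3, 6 or 12 h). The rats were 28 days old, MEHP was given at 1 g/kg in corn oil, and each testis RNA was hybridised to its own Affymetrix Rat230_2 array. The labels name no genotype other than the strain and no agent other than MEHP and corn oil. Whole testis was sampled, not sorted cells.

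MEHP, mono(2-ethylhexyl) phthalate, is the monoester released in the body from a plasticizer of vinyl polymers. In the immature testis its best known target is the Sertoli cell, which holds and feeds the germ cells and forms the blood-testis barrier with its neighbours. Injured Sertoli cells lose contact with germ cells and release chemokines that draw leukocytes into the tissue between the tubules, where the Leydig cells make testosterone from cholesterol.

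Signals below are the deposited array intensities, listed in the order 57, 58, 59 for MEHP and 60, 61, 62 for corn oil. A change is the difference of means of log2(signal + 16), MEHP minus corn oil, with its standard error from a limma fit to all 30 arrays, and "rose" or "fell" means an adjusted p under 0.05 over the 21190 probe sets tested. Nothing in the labels ties an animal to another, so n was 3 per group. Markers of the main cell types were present on the corn oil arrays. Signals of the Leydig cell enzyme Hsd3b1 were 6637, 6659 and 6737, those of the Sertoli cell claudin Cldn11 were 11153, 10876 and 13286, and those of the meiotic protein Sycp3 were 19072, 21646 and 22321. In whole tissue, a change in the number of cells of a type and a change in RNA per cell cannot be told apart.

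The 3 MEHP arrays were less alike than the corn oil arrays, and animal 57 stood apart. Log2 signals correlated with r of 0.979 to 0.981 within corn oil, but 0.936 (57 with 58), 0.958 (57 with 59) and 0.963 (58 with 59) within MEHP. Animal 57 lay more than 4-fold beyond all 29 other arrays on 59 probe sets, 40 above and 19 below, and each of the other 29 arrays did so on 0. Of the probe sets that rose, animal 57 was the farthest from the corn oil mean in 83.5%, and animal 58 the nearest in 78.1%. For those that fell the shares were 75.3% and 63.3%. Gavage volume was lowest for animal 57 (0.21 ml) and highest for animal 58 (0.265 ml). RNA integrity numbers were 9.2 to 9.3 after MEHP and 9.5 to 9.8 after corn oil, without overlap (exact permutation test, 2-sided, p = 0.1, the smallest that 3 against 3 allows), inside the 8.2 to 10 of 23 other arrays. The log2 ratio of 3' to 5' actin signal was 0.66 to 1.03 after MEHP and 1.04 to 1.16 after corn oil (exact p = 0.1). The 0.66 of animal 57 lay below the 0.83 to 1.36 of the 24 arrays of other times, and its hexokinase ratio of 0.23 below their lowest, 0.32.

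At 12 h, 1852 probe sets passed (8.74% of those tested), 1072 higher (5.06%) and 780 lower (3.68%). At least 2-fold changes numbered 559 upward and 204 downward. These calls lean on the spread shared by 30 arrays. When the 6 arrays of 12 h were fitted alone, 254 passed, 223 higher and 31 lower, of which 252 were among the 1852. Without animal 57 the count was 1015 (943 shared with the 1852), without 62 it was 1203, and without 58 it was 2686. With the RNA integrity number as a covariate 1471 passed. No probe set among the 1852 had the opposite sign under any alternative run, but many alternatives could not turn it. Omitting the filter or the trend, or fitting the 6 arrays alone, leaves the difference itself unchanged. Where the groups did not overlap, neither another added constant nor leaving out 1 animal could turn the sign. Of 11280 genes with a tested probe set of 1 symbol, 687 rose and 485 fell. In 673 and 456 of them the 3 MEHP animals lay wholly on 1 side of the 3 corn oil animals. Of all probe sets tested, called or not, this held for 21.7%. The genes were called on these same animals, so their larger share is no separate result. The median difference over all probe sets was -0.04. List counts below are of genes, to be set beside these 687 that rose and 485 that fell of 11280.

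**Figure D1:**
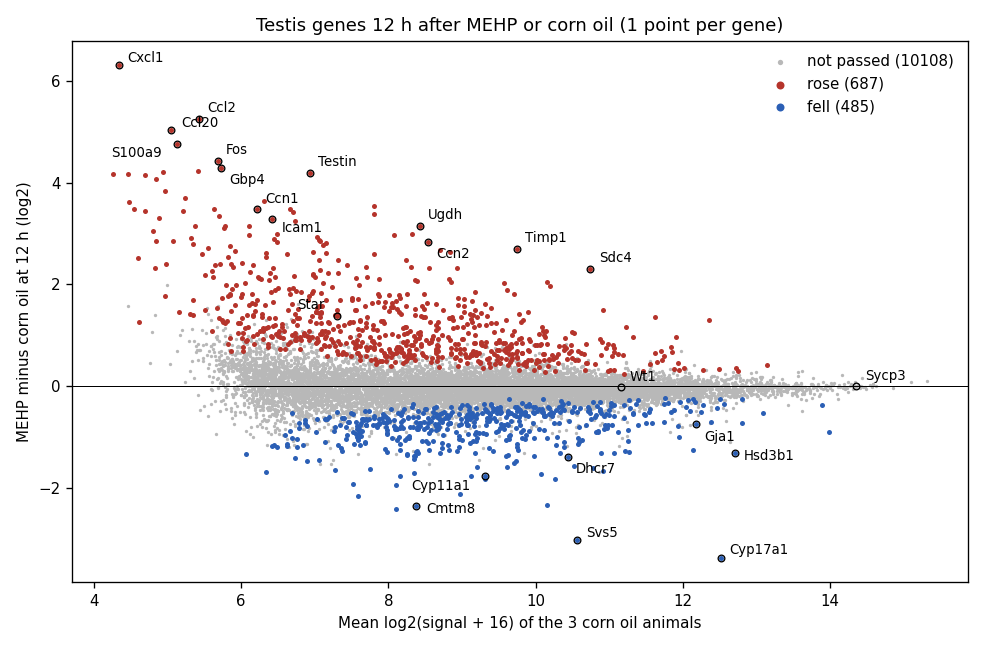
Difference between MEHP and corn oil at 12 h (log2, vertical) against the mean log2(signal + 16) of the 3 corn oil animals (horizontal), with 1 point per gene, red for the 687 that rose, blue for the 485 that fell and grey for the rest. Named genes are circled: Cxcl1, Ccl2 and Ccl20 lie highest and at the left edge of corn oil signal, Timp1 and Sdc4 are among the risers of high signal, and Cyp17a1 and Svs5 are lowest.

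Cxcl1, Ccl2 and Ccl20 had the largest increases of all genes with 16 added to each signal, an order that depends on this constant (S100a8 had 6.28 with 1 added and 4.17 with 16). Of 16 chemokines tested, 8 rose and 0 fell (median 1.31), all 8 without animal 57 too, 6 in the fit on the 6 arrays, and 9 rose and 1 fell without animal 58. Cxcl1, which attracts neutrophils, read 770.1, 1561 and 3335 after MEHP and 5.01, 2.59 and 5.29 after corn oil (log2 difference 6.31 ± 0.41 (SE), adjusted p = 7.0e-10). Unlike most genes that rose, it was lowest in animal 57 and highest in animal 59, and without 57 the difference was 6.83. Ccl2, the main attractant of monocytes, read 2781, 736 and 2085 against 20.6, 33.6 and 27.7 (log2 difference 5.25 ± 0.57 (SE), adjusted p = 8.7e-07). Ccl20, which acts on lymphocytes and dendritic cells through CCR6, read 1629.5, 581 and 1306 against 47.0, 5.33 and 11.2 (log2 difference 5.04 ± 0.57 (SE), adjusted p = 1.9e-06). The groups did not overlap for any of these genes, which the rule that named the largest changes required. Ccl7 (3.70 ± 0.50), a further monocyte attractant, the membrane-bound Cx3cl1 (2.90 ± 0.35) and the interferon-inducible Cxcl10 (2.55 ± 0.27), Cxcl16 (1.63 ± 0.27) and Cxcl11 (1.33 ± 0.24) rose as well. Not all members moved: Cxcl12 (-0.44 ± 0.16, adjusted p = 0.087), a homing signal made by stroma, and Ccl5 (-0.14 ± 0.24, adjusted p = 0.82) did not pass. In corn oil testes Cxcl1, Ccl2, Ccl7 and Ccl20 had signals under 66.7, the lowest 40th percentile of any array, so the size of their fold depends on the added 16. Ccl7 and Ccl20 passed the filter on low signals only through the MEHP arrays of 12 h, as did 4 of the 18 cytokine genes (Il6, Il33, Il1r2 and Il1b), 3 of 15 complement and acute phase genes, and 0 to 2 members of each other list except the neutrophil markers. Among genes named below, the same held for Fst, Plaur, Serpinb2, Adamts4, Fas, Srxn1, Nupr1, Bhlhe40, Lcn2, Saa3 and Reg3b. Such members had to be higher to be tested, so their p-values and the counts that include them are descriptions.

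Among cytokines of the IL-1, IL-6 and TNF families with their receptors, 11 of 18 rose and 0 fell (median 1.57), 11 without animal 57 and 9 in the fit on the 6 arrays. The ligands Il6 (2.85 ± 0.41), Il1a (1.63 ± 0.27) and Il33 (1.24 ± 0.28) rose, while Il1b had 1.14 ± 0.37 (adjusted p = 0.056). Receptors rose on both the signalling and the decoy side. Il1r1, the signalling IL-1 receptor, read 1003, 417 and 680.3 against 136, 124 and 127 (log2 difference 2.22 ± 0.23 (SE), adjusted p = 4.3e-07), and the decoy Il1r2 read 1327, 190.1 and 303 against 5.19, 13.9 and 32.2 (log2 difference 3.83 ± 0.56 (SE), adjusted p = 4.6e-05). Both were highest in animal 57 and lowest in 58, with no overlap. Il6r (2.62 ± 0.28), the TNF receptor Tnfrsf1a (2.09 ± 0.23) and the TWEAK receptor Tnfrsf12a (3.54 ± 0.46) rose, with the downstream kinase Jak2 (1.51 ± 0.18), the transcription factor Stat3 (2.07 ± 0.24) and the feedback inhibitor Socs3 (2.04 ± 0.34). The other probe set of Stat3 gave 1.27.

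Genes of the NF-kB pathway, the transcription factor system that TNF and IL-1 switch on, rose in 13 of 18 members and fell in 0 (median 1.18), with 10 without animal 57 and 5 in the fit on the 6 arrays. Of the subunits, Nfkb2 read 889.7, 292 and 381 against 3.24, 33.5 and 8.90 (log2 difference 4.06 ± 0.39 (SE), adjusted p = 2.2e-07), and Nfkb1 (2.10 ± 0.25) and Relb (1.86 ± 0.26) rose, whereas Rela had 0.09 ± 0.13 (adjusted p = 0.77). Of the inhibitors, Nfkbia, which holds NF-kB in the cytoplasm, read 1266, 1110.0 and 1361 against 841, 656 and 762, a small rise with no overlap (log2 difference 0.72 ± 0.12 (SE), adjusted p = 1.9e-04). Nfkbiz (2.98 ± 0.30), a nuclear cofactor, and Tnfaip3 (1.69 ± 0.21), a deubiquitinase that ends the signal, rose more. Nfkbia was not called in the fit on the 6 arrays (adjusted p = 0.064).

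Promoters of Cxcl1 and Nfkbia, both classical NF-kB targets, and of Hsd3b1, a steroid enzyme that fell, are shown. Those of Ccl2, Cyp17a1 and Star were sought too but were not held in the source. Icam1 and Insl3 were held but are not printed, so the display favours promoters with a match. The sequences are from RefSeq on build GRCr8, minus strand, from 250 bases before to 50 after the start of the gene, at chr14:17479272-17479571, chr6:78597023-78597322 and chr2:188864645-188864944. Capitals mark matches, on either strand, to GGGANNTTC (an NF-kB form) in the first pair and to TGAGTCA (an AP-1 form) in Hsd3b1.
Cxcl1: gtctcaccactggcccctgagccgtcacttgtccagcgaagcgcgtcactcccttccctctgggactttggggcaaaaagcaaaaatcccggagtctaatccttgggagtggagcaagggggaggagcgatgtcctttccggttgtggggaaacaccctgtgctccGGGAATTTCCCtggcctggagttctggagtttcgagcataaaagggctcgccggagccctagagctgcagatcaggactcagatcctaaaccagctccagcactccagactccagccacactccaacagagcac
Nfkbia: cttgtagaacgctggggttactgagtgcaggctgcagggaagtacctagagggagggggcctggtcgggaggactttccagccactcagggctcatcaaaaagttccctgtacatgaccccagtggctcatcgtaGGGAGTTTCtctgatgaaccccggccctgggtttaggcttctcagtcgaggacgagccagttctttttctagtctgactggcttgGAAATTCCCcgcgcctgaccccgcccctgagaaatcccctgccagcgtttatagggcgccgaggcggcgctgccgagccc
Hsd3b1: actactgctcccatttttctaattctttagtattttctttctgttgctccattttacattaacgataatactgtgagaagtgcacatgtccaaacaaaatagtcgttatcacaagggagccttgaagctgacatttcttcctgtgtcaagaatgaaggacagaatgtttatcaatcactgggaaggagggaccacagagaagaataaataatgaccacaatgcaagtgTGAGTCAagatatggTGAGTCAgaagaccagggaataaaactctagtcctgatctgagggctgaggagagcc
In Cxcl1 the match begins 84 bases before the start and a second match on the other strand overlaps it from 82 before. In Nfkbia the matches begin at 115 and, on the other strand, 30 bases before the start. In Hsd3b1 they begin at 22 and 7 before it. GGGANNTTC stood in 4.05% of all 33469 promoters and in 3.79% of the 9418 promoters of tested genes. It stood in 6.62% of the 559 promoters of genes that rose and in 5.49% of the 401 of genes that fell. TGAGTCA stood in 3.57% of tested genes, 7.69% of those that rose and 2.49% of those that fell. For TGACGTCA, a cyclic AMP response element, the shares were 3.22%, 4.47% and 1.25%. For CAAGGTCA, a form bound by NR5A1, they were 0.86%, 0.716% and 0.249%. Icam1 and Insl3 held no match to these motifs in the same window. A match is a string of letters, not a measured site.

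Immediate early transcription factors and their companions, which cells switch on within minutes of a stimulus, rose in 23 of 30 members and fell in 0 (median 1.64). The count was 20 without animal 57 and 14 in the fit on the 6 arrays. Fos, a subunit of AP-1, read 883, 792 and 1855 against 29.4, 21.8 and 62.6 (log2 difference 4.43 ± 0.59 (SE), adjusted p = 1.4e-05), and Egr1, a zinc finger factor, read 1909, 1802 and 3549 against 168, 180.5 and 292 (log2 difference 3.38 ± 0.44 (SE), adjusted p = 1.0e-05). Both were highest in animal 59, and the groups lay far apart. Junb (2.29 ± 0.21), Fosl1 (2.34 ± 0.32), Jun (1.34 ± 0.29), the stress factor Atf3 (3.34 ± 0.40) and the growth regulator Myc (2.41 ± 0.34) rose too. Cebpd (2.87 ± 0.26) and Cebpb (2.37 ± 0.35), factors of the acute phase response, rose, as did Zfp36, which destabilises cytokine transcripts (2.35 ± 0.22). Of 14 MAP kinase phosphatases and genes of the EGF receptor pathway, 5 rose and 0 fell (8 without animal 58, 3 in the fit on the 6 arrays). They included Dusp1 (2.78 ± 0.26), whose other probe set gave 1.29, Dusp5 (2.10 ± 0.34), Spry1 (1.88 ± 0.32) and Errfi1 (0.79 ± 0.17), which all restrain growth factor signalling.

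Genes that respond to YAP or SRF, factors that read cell shape and actin tension, rose in 7 of 12 members and fell in 0 (median 0.81), 6 without animal 57 and 5 in the fit on the 6 arrays. Ccn1, a matricellular protein that binds integrins, read 777, 599.8 and 1160.1 against 59.0, 54.6 and 62.4 (log2 difference 3.48 ± 0.23 (SE), adjusted p = 7.0e-10). Ccn2, its relative, read 1910.0, 3132 and 3092 against 318, 358 and 395 (log2 difference 2.84 ± 0.24 (SE), adjusted p = 3.9e-08). Ccn1 was lowest in animal 58 and Ccn2 in 57, and neither overlapped. The mean level of the list was 10.22 to 10.25 in the MEHP animals and 9.07 to 9.11 in the corn oil animals. The contractile proteins Tagln (1.49 ± 0.17), Acta2 (1.29 ± 0.17) and Actg2 (1.10 ± 0.19), which also mark the peritubular myoid cells around the tubules, were among those that rose. Of 19 peritubular and stromal markers 6 rose and 0 fell (5 and 2 without animal 58), and all 6 were contractile or cytoskeletal (Tagln, Cald1, Acta2, Actg2, Des, Cnn1). The smooth muscle myosins Myh11 (0.07 ± 0.17) and Myl9 (0.03 ± 0.09) did not pass, nor did the fibroblast collagen Col1a1 (-0.54 ± 0.25).

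**Figure D2:**
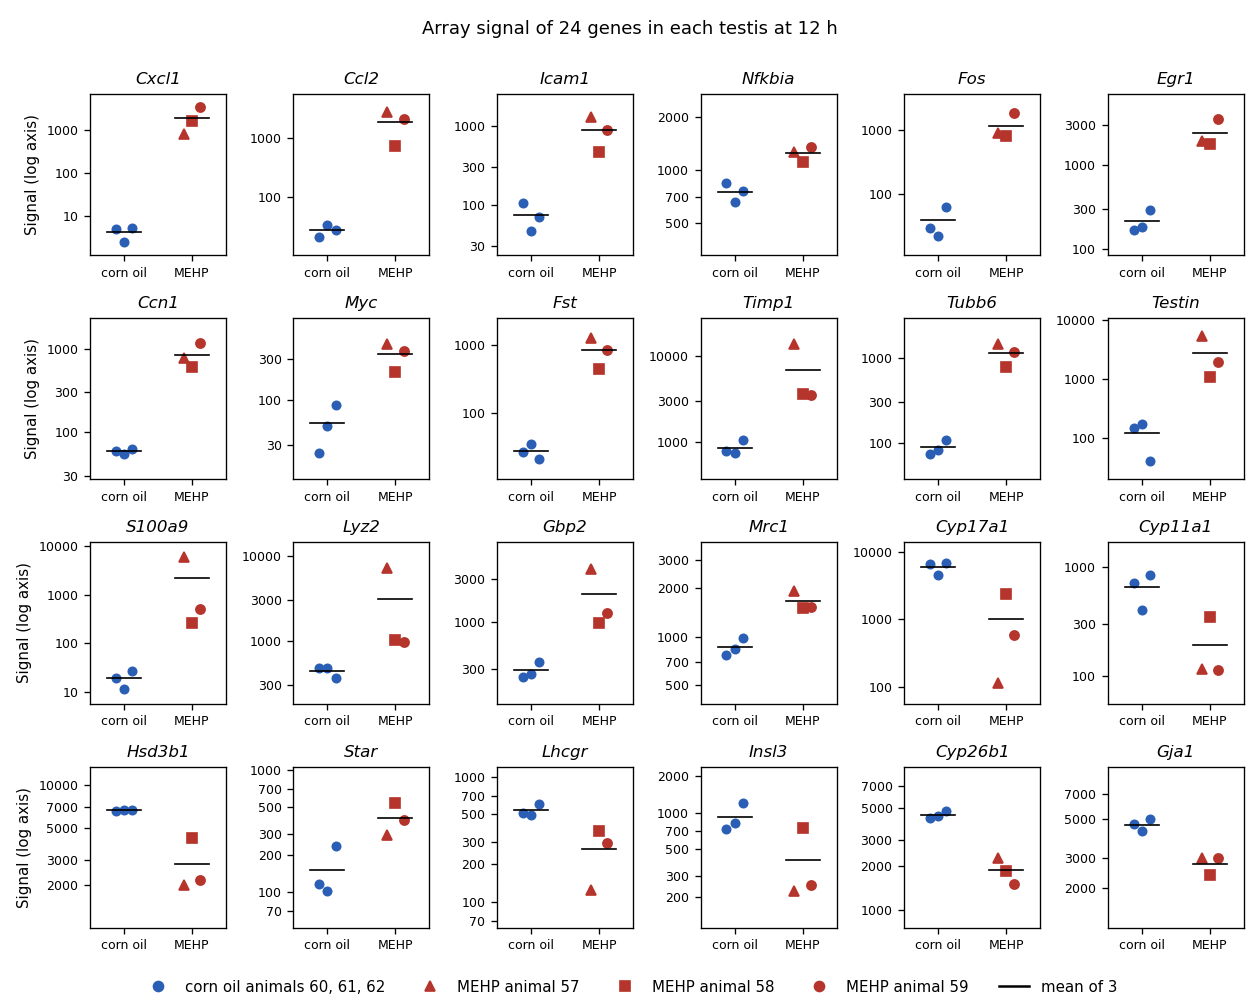
Array signal (log axis) of 24 genes in each testis at 12 h, blue circles for corn oil animals 60, 61 and 62, red marks for MEHP animals 57 (triangle), 58 (square) and 59 (circle), black lines for the mean of 3. Animal 57 is the highest for Timp1, Testin, S100a9, Lyz2 and Gbp2 and the lowest for Cyp17a1, Lhcgr and Cxcl1 among the MEHP animals, and the groups overlap for Insl3.

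Cyp17a1, Cyp11a1 and Hsd3b1, enzymes on the way from cholesterol to androgens, fell in MEHP testes. Of 13 genes of cholesterol entry and steroid synthesis 3 fell and 1 rose (median 0.06), the same 3 and 1 without animal 57. Cyp17a1, which converts progestins to androgens in Leydig cells, read 113, 2343 and 575 against 6509, 4445 and 6848, a fall to a level 10.4-fold lower (log2 difference -3.37 ± 0.55 (SE), adjusted p = 1.5e-04). All 3 MEHP animals were below all 3 corn oil animals, with 57 lowest and 58 nearest to the controls, and without 57 the difference was -2.31 (adjusted p = 3.8e-04). Cyp11a1, which cuts the cholesterol side chain, read 118, 351 and 113 against 712, 399 and 832 (log2 difference -1.78 ± 0.36 (SE), adjusted p = 0.0017). Hsd3b1 read 2020.4, 4284 and 2193 against the narrow corn oil values of 6637, 6659 and 6737 (log2 difference -1.32 ± 0.18 (SE), adjusted p = 2.4e-05). None of the 3 was called in the fit on the 6 arrays (adjusted p = 0.15, 0.13 and 0.064).

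Star, the carrier that brings cholesterol into mitochondria, moved the other way. It read 295, 537 and 389 against 115, 101 and 239 (log2 difference 1.38 ± 0.38 (SE), adjusted p = 0.022), without overlap and highest in animal 58. This call was lost without MEHP animal 58 (adjusted p = 0.073) and without corn oil animals 60 (0.099) or 61 (0.12). Against the mean of all corn oil groups the difference was 0.73 (adjusted p = 0.095), and the other probe set of Star gave 0.49. The carrier Tspo (0.09 ± 0.17), the electron donors Fdx1 (0.30 ± 0.13) and Por (0.08 ± 0.09) and the aromatase Cyp19a1 (0.07 ± 0.28) did not pass.

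Of 17 Leydig cell receptors, regulators and markers, 5 fell and 3 rose (median -0.34). The count that fell was 3 without animals 57, 60 or 62, 6 without 58 and 0 in the fit on the 6 arrays. Lhcgr, the receptor for luteinizing hormone, read 123, 372 and 295 against 516, 499 and 606 (log2 difference -1.11 ± 0.24 (SE), adjusted p = 0.0034), and without animal 57 it had -0.67 (adjusted p = 0.035). Nr0b1, a repressor of steroidogenic genes, read 181, 639.9 and 435 against 1044, 813 and 1139 (log2 difference -1.37 ± 0.23 (SE), adjusted p = 2.1e-04; -0.89 without 57). Nr5a1, the activator of these genes, had -0.70 ± 0.17 and lost its call without 57 (-0.49, adjusted p = 0.12). Scarb1, which takes up cholesterol from HDL, had -1.02 ± 0.28 and lost its call without animals 59, 60 or 62 (adjusted p = 0.092, 0.078 and 0.086). Insl3, the peptide hormone of Leydig cells, read 223, 751 and 252 against 737, 819 and 1204, with overlap between animal 58 and the controls, and did not pass (log2 difference -1.32 ± 0.48 (SE), adjusted p = 0.095). It passed with array weights (adjusted p = 0.014), against all corn oil groups (0.014), with gavage volume (0.010) and without animal 58 (0.012). The members that rose are not restricted to Leydig cells: the adhesion molecule Vcam1 (2.98 ± 0.34), the immediate early nuclear receptor Nr4a1 (2.17 ± 0.41) and Hsd11b1 (1.55 ± 0.22), which regenerates active glucocorticoid. Nor are all that fell, as Nr5a1 also stands in the list of Sertoli cell genes and its fall is counted in both lists. In cholesterol synthesis and uptake 1 of 24 genes fell and 2 rose (0 rose without 57 and 4 without 58), where 485 fell and 687 rose of all 11280 genes. Nothing is read about this pathway from counts so small. The one that fell was Dhcr7, the last enzyme of the pathway, at 449, 643 and 462 against 1365, 1306 and 1429.5 (log2 difference -1.39 ± 0.13 (SE), adjusted p = 2.2e-07), and it was called in the fit on the 6 arrays too.

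Of 21 identity genes and secreted proteins of Sertoli cells 4 fell and 0 rose (median -0.13), beside 485 that fell and 687 that rose of all 11280 genes. However, 1 fell without animal 57 and 2 without 60 or 62. Wt1, a transcription factor of Sertoli cell fate, read 2315, 2175 and 2214 against 2304, 2159 and 2366 (log2 difference -0.03 ± 0.12 (SE), adjusted p = 0.94), with full overlap. Amh (0.07 ± 0.22), Inha (-0.34 ± 0.15) and Cldn11 (0.02 ± 0.12) did not pass either, but Inha passed with array weights (-0.48, adjusted p = 0.010), against all corn oil groups (0.0074) and with gavage volume (0.030). Cyp26b1, which degrades retinoic acid, fell in every omission of an animal, at 2253, 1854 and 1519 against 4276, 4416 and 4754 (log2 difference -1.27 ± 0.16 (SE), adjusted p = 8.8e-06), and in the fit on the 6 arrays (adjusted p = 0.014). It was lowest in animal 59, not 57.

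Fst, the protein that binds and blocks activin, read 1270.2, 452 and 860.2 against 26.4, 34.6 and 20.6 (log2 difference 4.24 ± 0.35 (SE), adjusted p = 3.3e-08), with no overlap and 3.20 at its other probe set. Of 29 genes of the activin, inhibin and TGF-beta system 6 rose and 1 fell, but without animal 57 only Fst passed (1 rose, 0 fell), and without 61 4 rose. Fst passed the filter on low signals only through the MEHP arrays of 12 h, so its p-value is a description. The activin subunit Inhba had 1.62 ± 0.37 (without 57 1.19, adjusted p = 0.071). The subunit Inhbb read 165, 872 and 839 against 1433, 1047 and 1366 (log2 difference -1.32 ± 0.36 (SE), adjusted p = 0.020), with animal 57 far below the rest, and had -0.56 without it (adjusted p = 0.16). Its call was also lost without 60 or 62 (adjusted p = 0.081 and 0.075).

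Among junction proteins of the blood-testis barrier and germ cell contacts, 6 of 24 rose and 2 fell (median 0.15; 3 and 2 without 57, and 3 and 1 in the fit on the 6 arrays). Testin, a protease-like protein that Sertoli cells secrete when junctions with germ cells open, read 5305, 1086 and 1897 against 149, 176 and 41.2 (log2 difference 4.20 ± 0.53 (SE), adjusted p = 7.0e-06). Tes, a LIM protein of focal adhesions, read 4215, 1708 and 3097 against 476, 449 and 401 (log2 difference 2.63 ± 0.25 (SE), adjusted p = 2.2e-07). Its other probe sets gave 1.27 and 2.09. Cdh2, the N-cadherin of Sertoli-germ cell contacts, read 1433, 747 and 1031 against 315, 369.7 and 327 (log2 difference 1.57 ± 0.25 (SE), adjusted p = 1.0e-04). For these 3 genes animal 57 was highest and 58 lowest, and no animal overlapped. Gja1, the gap junction protein of Sertoli cells, fell, at 2969.8, 2369.5 and 2976 against 4674, 4238 and 4999.6 (log2 difference -0.74 ± 0.13 (SE), adjusted p = 2.7e-04; -0.50 at its other probe set, which did not pass), and Cldn5 fell by 0.78. Tjp1 (0.12 ± 0.08), Ocln (0.07 ± 0.14) and Cldn11, core proteins of tight junctions, did not pass.

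In the cytoskeleton 9 of 20 genes rose and 0 fell (median 0.31), with 4 without 57, 5 without 61 and 2 in the fit on the 6 arrays. Those 2 were Tubb6, a beta tubulin, at 1456, 782 and 1176 against 75.9, 82.5 and 109 (log2 difference 3.42 ± 0.37 (SE), adjusted p = 7.6e-07), and Krt19, a keratin, at 439, 496 and 714 against 14.8, 47.4 and 47.1 (log2 difference 3.48 ± 0.35 (SE), adjusted p = 2.9e-07). Krt19 also stands in the list of epididymis and rete markers, of which 4 were tested and the other 3 did not pass. Actn1 (1.63 ± 0.27) and Tubb2a (1.10 ± 0.21) rose. Vim, the intermediate filament of Sertoli cells, read 8380.0, 6404 and 6780.2 against 5714, 5173 and 6457 and did not pass (log2 difference 0.31 ± 0.11 (SE), adjusted p = 0.087), but passed without animal 58 (adjusted p = 0.033), against all corn oil groups (0.022) and with gavage volume (0.019).

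Of 22 plasminogen activators, coagulation genes and protease inhibitors 8 rose, 0 fell and 14 did not pass (median 0.22), 8 rose without animal 57, 6 in the fit on the 6 arrays, and 8 and 2 without 58. Plaur, the urokinase receptor, read 425, 132 and 255 against 2.38, 9.73 and 11.2 (log2 difference 3.48 ± 0.38 (SE), adjusted p = 9.8e-07), but 2.13 with 64 added in place of 16. Plaur and Serpinb2 passed the filter on low signals only through the MEHP arrays of 12 h. The urokinase Plau had -0.43 ± 0.15 and did not pass, but was called lower with array weights (adjusted p = 0.0063), against all corn oil groups (0.0050), with gavage volume (0.049) and without animal 58 (0.015). Tissue plasminogen activator Plat (2.03 ± 0.28), the inhibitors Serpinb2 (3.45 ± 0.52, or 2.21 with 64 added), Tfpi2 (2.09 ± 0.27) and A2m (1.57 ± 0.17), tissue factor F3 (0.91 ± 0.11) and the Sertoli cell protease Ctsl (1.36 ± 0.23) rose. Of 16 metalloproteinases and TIMPs 4 rose and 0 fell, with or without 57. Timp1, an inhibitor that Sertoli cells secrete, read 13624, 3550.2 and 3514 against 780.4, 738 and 1041, a 6.47-fold rise in which animal 57 was far above the other MEHP animals (log2 difference 2.69 ± 0.32 (SE), adjusted p = 4.1e-06; 2.05 without 57). Timp3 (1.07 ± 0.18) and the proteases Adamts1 (1.92 ± 0.25) and Adamts4 (2.13 ± 0.27) rose as well. Of 32 integrins and matrix proteins 8 rose and 2 fell, 4 and 2 without 57, 12 and 4 without 58, and 1 and 0 in the fit on the 6 arrays. Itga6, the laminin receptor subunit, read 2299, 1445 and 2729 against 582, 576 and 534 (log2 difference 1.86 ± 0.29 (SE), adjusted p = 1.1e-04), Itgb1 had 1.16 ± 0.20 and the basement membrane collagen Col4a1 had 1.00 ± 0.18. The matrix proteoglycan Lum fell by 0.95 and was called in every omission.

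Death receptors were among the genes that rose. Of 22 genes 5 rose and 2 fell (median 0.16), 4 and 1 without 57, 8 and 2 without 58, and 2 and 0 in the fit on the 6 arrays. Fas, the receptor through which Sertoli cell Fas ligand can kill germ cells, read 421, 141 and 298 against 26.1, 35.9 and 51.0 (log2 difference 2.40 ± 0.32 (SE), adjusted p = 1.7e-05), and Faslg had 0.36 ± 0.30 (adjusted p = 0.58). Fas passed the filter on low signals only through the MEHP arrays of 12 h. Ripk3 (1.84 ± 0.32), a kinase of necroptosis, and Casp4 (1.08 ± 0.22) rose. Casp6 had -0.60 ± 0.14 and lost its call without corn oil animal 62 (adjusted p = 0.050), and Casp8 (0.10 ± 0.33) and Casp9 (-0.07 ± 0.13) did not pass. Of 22 p53 targets and BCL2 relatives 7 rose and 2 fell (4 and 2 without 57). Cdkn1a, the p21 inhibitor of the cell cycle, read 1790.1, 906 and 1114 against 439.7, 361 and 359 (log2 difference 1.62 ± 0.17 (SE), adjusted p = 5.9e-07), and Gadd45b (2.49 ± 0.27), Gadd45g (1.58 ± 0.23) and the survival factor Bcl2a1 (2.59 ± 0.44) rose. Other p53 targets gave another picture, as Sesn1 fell by 0.76 and Mdm2 (0.08 ± 0.14) and Bbc3 (0.39 ± 0.20) did not pass.

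Stress pathways changed in part. In the NRF2 list 7 of 30 rose and 3 fell (4 and 1 without 57, 8 and 5 without 58, 4 and 2 without 60 or 61), led by Ugdh, which makes UDP-glucuronate, at 6442, 1595 and 2747 against 343, 306 and 338 (log2 difference 3.15 ± 0.30 (SE), adjusted p = 1.8e-07). Srxn1 rose (1.99 ± 0.38) and the glutathione transferase Gsta1 fell by 0.72, while Hmox1 (0.46 ± 0.17) and Nqo1 (-0.02 ± 0.18) did not pass. Hmox1 passed with array weights (adjusted p = 0.044), against all corn oil groups (0.0069) and without animal 58 (0.0065). In the list of ER, amino acid and integrated stress 4 of 31 rose and 5 fell, but 2 fell without 59 or 62 and 3 without 61. Ppp1r15a (1.40 ± 0.19), Nupr1 (1.48 ± 0.20) and Xbp1 (0.69 ± 0.14) rose, and the serine and asparagine enzymes Phgdh (-1.30 ± 0.26; -0.72 without 57) and Asns (-0.77 ± 0.16) fell. The chaperone Hspa5 (0.29 ± 0.12) and the factor Ddit3 (-0.02 ± 0.22) did not pass. Of 18 heat shock genes 5 rose and 0 fell, 2 without 57, 3 without 61 and 0 in the fit on the 6 arrays. The 2 that stayed without 57 were Bag3 (1.49 ± 0.21) and Hspb1 (0.84 ± 0.17).

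MEHP is known to activate the nuclear receptors PPARA and PPARG. Of 31 PPAR targets and genes of fatty acid oxidation 5 fell and 2 rose (median -0.12; 5 and 1 without 57, and 0 and 1 in the fit on the 6 arrays). Fads1, a fatty acid desaturase, read 318, 920.4 and 698 against 1918, 1674 and 2212 (log2 difference -1.68 ± 0.22 (SE), adjusted p = 1.2e-05), Acot1 had -1.07 ± 0.16 and the carnitine transferase Cpt1a had -0.60 ± 0.10. Angptl4, a lipase inhibitor induced by PPARs and by glucocorticoid, rose (1.56 ± 0.26). Of 31 genes of glucose uptake and glycolysis 3 rose and 3 fell (1 and 2 without 57, 1 and 1 without 60 or 61), and of 22 enzymes of prostaglandins, retinoids and polyamines 3 rose and 2 fell (1 and 2 without 57 or 62). Of all 11280 genes 687 rose and 485 fell. Beside that, the small counts for PPAR, glucose and prostaglandin genes are not read as results about these pathways. Of 12 insulin-like growth factors and binding proteins 3 fell and 0 rose. Igfbp5 read 130.0, 225 and 150.3 against 553, 489.9 and 877 (log2 difference -1.82 ± 0.25 (SE), adjusted p = 1.8e-05), with -2.06, -0.97 and -1.14 at its other probe sets. Igf1 had -1.31 ± 0.39, and its call was lost in all omissions but 1 (adjusted p up to 0.16). Of 22 glucocorticoid responsive genes 11 rose and 3 fell (9 and 2 without 57). The list holds Cebpd, Dusp1, Hsd11b1 and Lcn2, whereas Fkbp5 (-0.16 ± 0.17) and Tsc22d3 (-0.01 ± 0.13), 2 other genes of this response, did not pass. Of 17 clock genes 4 fell and 2 rose, but 2 fell without 57, 60, 61 or 62. Nfil3 read 1058, 342 and 566 against 56.9, 48.2 and 53.3 (log2 difference 3.14 ± 0.29 (SE), adjusted p = 1.1e-07), and its counterpart Dbp read 91.1, 171 and 98.8 against 267, 242 and 242 (log2 difference -1.01 ± 0.17 (SE), adjusted p = 1.8e-04). The core genes Clock (0.07 ± 0.10) and Cry1 (-0.06 ± 0.11) did not pass.

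Some neutrophil and macrophage markers rose after MEHP. Of the 25 neutrophil genes listed 14 were on the array and 5 were tested, of which Il1r2, S100a8, Lcn2 and S100a9 rose and Hdc did not pass. These 4 passed the filter on low signals only through the MEHP arrays of 12 h, so their count was fixed in part by the filter and supports nothing. S100a9, a calcium-binding protein abundant in neutrophils, read 5972, 258 and 519 against 19.8, 11.7 and 27.7 (log2 difference 4.77 ± 0.75 (SE), adjusted p = 1.1e-04), and without 57 it had 3.45 (adjusted p = 6.8e-04). On the 6 arrays alone S100a9 (adjusted p = 0.079) and S100a8 (0.055) were not called. The summed signal of all 14, most of it from S100a9, S100a8 and Il1r2, was 9758, 905 and 1396 after MEHP and 206 to 260.2 after corn oil. Of the 14, 6 were below the 40th percentile on all 6 arrays (Camp, Cxcr1, Mmp9, Ncf1, Np4 and Hdc). Cxcr2 read 90.5 in animal 57 and 2.87 and 14.3 in the other MEHP animals, and Csf3r read 299.5 in 57 and 29.9 and 56.6 in the others, neither of them among the tested probe sets.

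Of 23 macrophage and monocyte markers tested 6 rose and 0 fell (median 0.46), 4 without 57, 11 without 58 and 1 in the fit on the 6 arrays. That one was Mrc1, a mannose receptor of resident macrophages, at 1926, 1513 and 1533 against 771, 839.6 and 984 (log2 difference 0.92 ± 0.12 (SE), adjusted p = 1.3e-05). Lyz2, lysozyme, read 7260.0, 1027 and 965 against 478, 476 and 368 (log2 difference 2.11 ± 0.41 (SE), adjusted p = 0.0011; 1.16 without 57), and the endotoxin coreceptor Cd14 had 1.62 ± 0.27. Cd68, a general macrophage marker, had 0.51 ± 0.21 and did not pass, nor did Csf1r (-0.08 ± 0.19). The 32 markers on the array summed to 28131, 11619 and 12653 after MEHP and to 8183 to 8596 after corn oil, and 5 were below the 40th percentile on all 6. Lymphocyte and mast cell markers (0 of 11) and erythrocyte and platelet markers (0 of 6) had no member that passed in this fit. The part of the neutrophil and macrophage signal in the cytokine, receptor and NF-kB results was not tested. Animal 57, with the highest neutrophil and macrophage marker sums, was also the highest for Ccl2, Ccl20, Il1r1, Nfkb2, Icam1 and Vcam1. It was the lowest MEHP animal for Cxcl1 and Cxcl10. Animal 57 was the farthest from the corn oil mean in 83.5% of all probe sets that rose, so nothing is read from its rank in these genes.

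Of 22 endothelial and adhesion genes 6 rose and 1 fell (7 and 1 without 57). Icam1, which leukocytes bind when they leave vessels, read 1300.5, 468 and 905 against 104, 45.4 and 68.5 (log2 difference 3.29 ± 0.40 (SE), adjusted p = 4.5e-06), and Vcam1 read 4938, 1196 and 2698 against 281, 256 and 393. Edn1 (2.14 ± 0.32) and Kdr (1.03 ± 0.22) rose, but the defining endothelial genes Pecam1 (0.01 ± 0.31), Tie1 (0.06 ± 0.25) and Vwf (0.16 ± 0.23) did not pass. Of 32 interferon-responsive genes 7 rose and 0 fell, 5 without 57, 11 without 58 and 12 without 59. Gbp4, a guanylate-binding protein, read 2075, 596 and 852 against 35.7, 35.8 and 38.9 (log2 difference 4.29 ± 0.32 (SE), adjusted p = 9.1e-09), and Gbp2 (2.49 ± 0.33) and Irf1 (1.80 ± 0.21) rose. The antiviral genes Mx1 (-0.16 ± 0.24), Isg15 (1.02 ± 0.52) and Rsad2 (0.84 ± 0.31) did not pass. Of 15 complement and acute phase genes 6 rose and 1 fell (4 and 0 without 57). Saa3 read 316, 96.1 and 112 against 27.2, 8.03 and 14.7 (log2 difference 2.41 ± 0.39 (SE), adjusted p = 1.5e-04; 1.46 with 64 added), and Reg3b read 4413, 116 and 299 against 6.07, 3.73 and 50.2, with 4.21 in all animals and 2.73 without 57.

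Germ cell genes passed in no list. By limma 0 of 14 spermatogonia markers, 0 of 19 spermatocyte markers and 0 of 27 spermatid genes passed. Spermatocyte markers were lower in 18 of 19 (median -0.09), where 57.1% of all probe sets were below 0, and the sums of all 19 were 85796 to 100710 after MEHP and 93852 to 101190 after corn oil. Spermatogonia markers had a median of -0.26 and sums of 7074 to 8939 against 10547 to 10949, without overlap. Most of each sum came from Uchl1, Id4 and Ccnd2. The lowest sum, in animal 58, held a Ccnd2 signal of 248, where animals 57 and 59 read 2164 and 1676. Of all single probe sets 21.7% did not overlap, and no spermatogonia marker passed, so these sums are descriptions. Spermatid genes spread most: their mean log2 level was 8.67 in animal 57, 9.98 in 58 and 9.56 in 59, around the 9.32 to 9.65 of corn oil. Of 44 cell cycle genes 1 rose and 2 fell, with 9 above and 35 below 0 (median -0.12), beside the same 57.1%. Cytosolic ribosomal proteins (0 of 27), proteasome subunits (0 of 30) and respiratory chain genes (0 of 42) had no member that passed, although 1 of the 42 did without 57 and 2 without 58, with 1 of the 30.

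**Figure D3:**
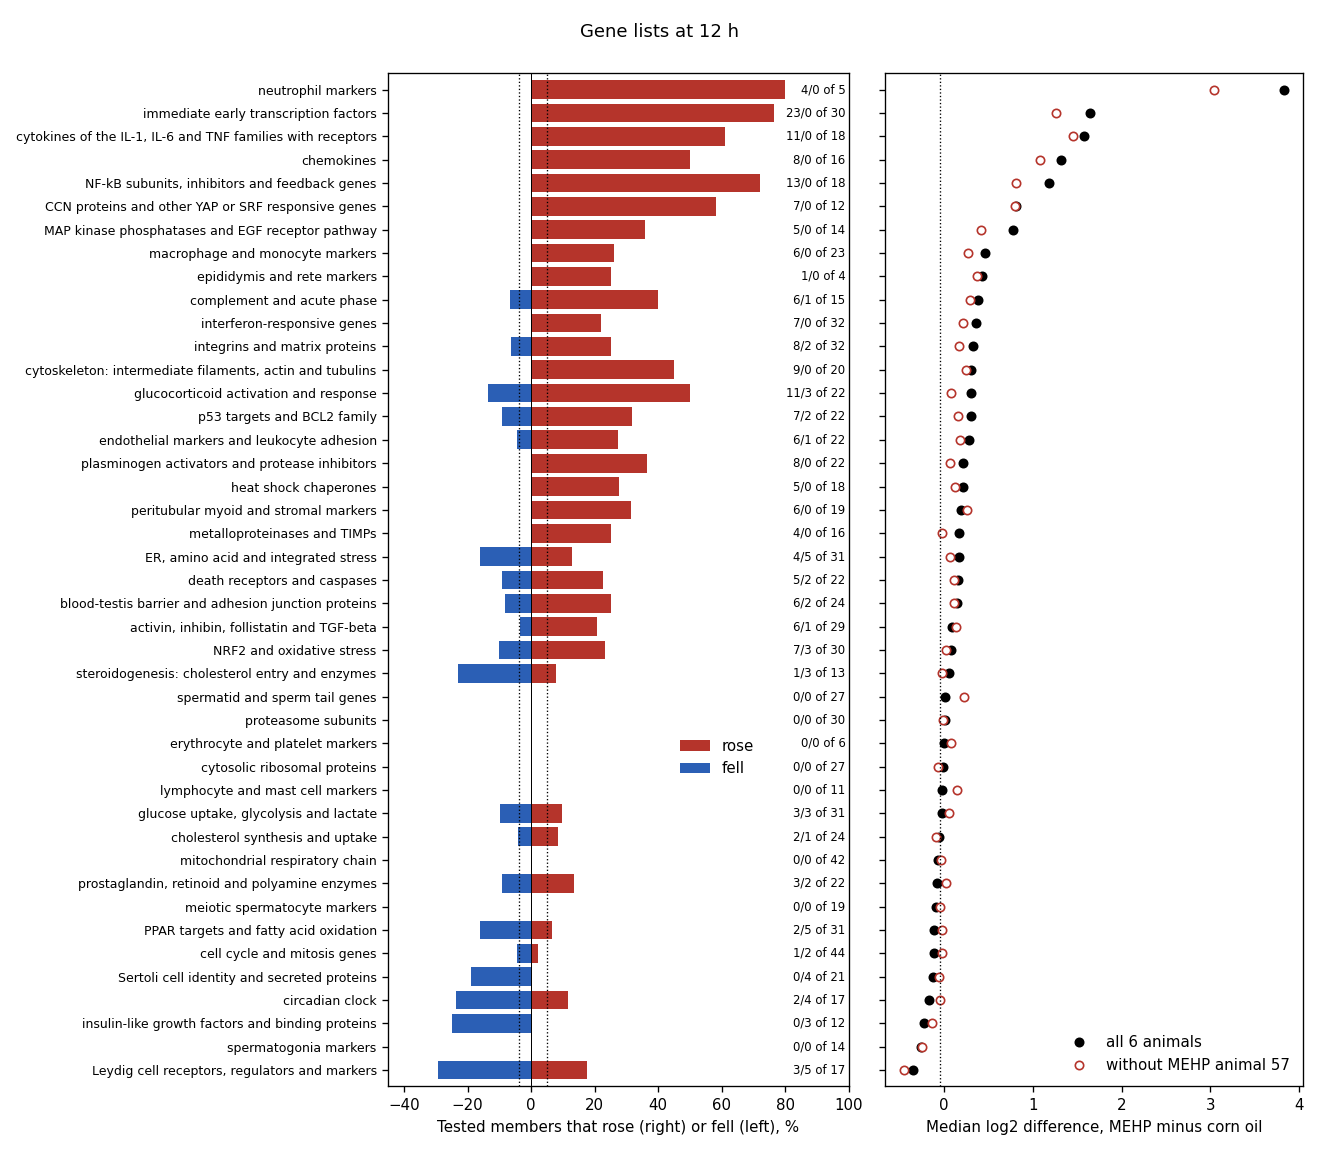
Left, the percent of tested members of each gene list that rose (red) or fell (blue) at 12 h, with the counts rose/fell of tested at the right and dotted lines at the 5.06% and 3.68% of all probe sets. The bars count genes, of which 687 rose and 485 fell among all 11280, so the lines are of another unit. Right, the median log2 difference of each list with all 6 animals (black) and without MEHP animal 57 (open red). A dotted line stands at -0.04, the median of all probe sets. The lists of inflammation and early response genes lie far right with either set of animals. The place of the inflammation lists is in part fixed by the filter. Only through the MEHP arrays of 12 h were 4 of 5 neutrophil markers, 4 of 18 cytokine genes and 2 of 16 chemokines tested.

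**Figure D4:**
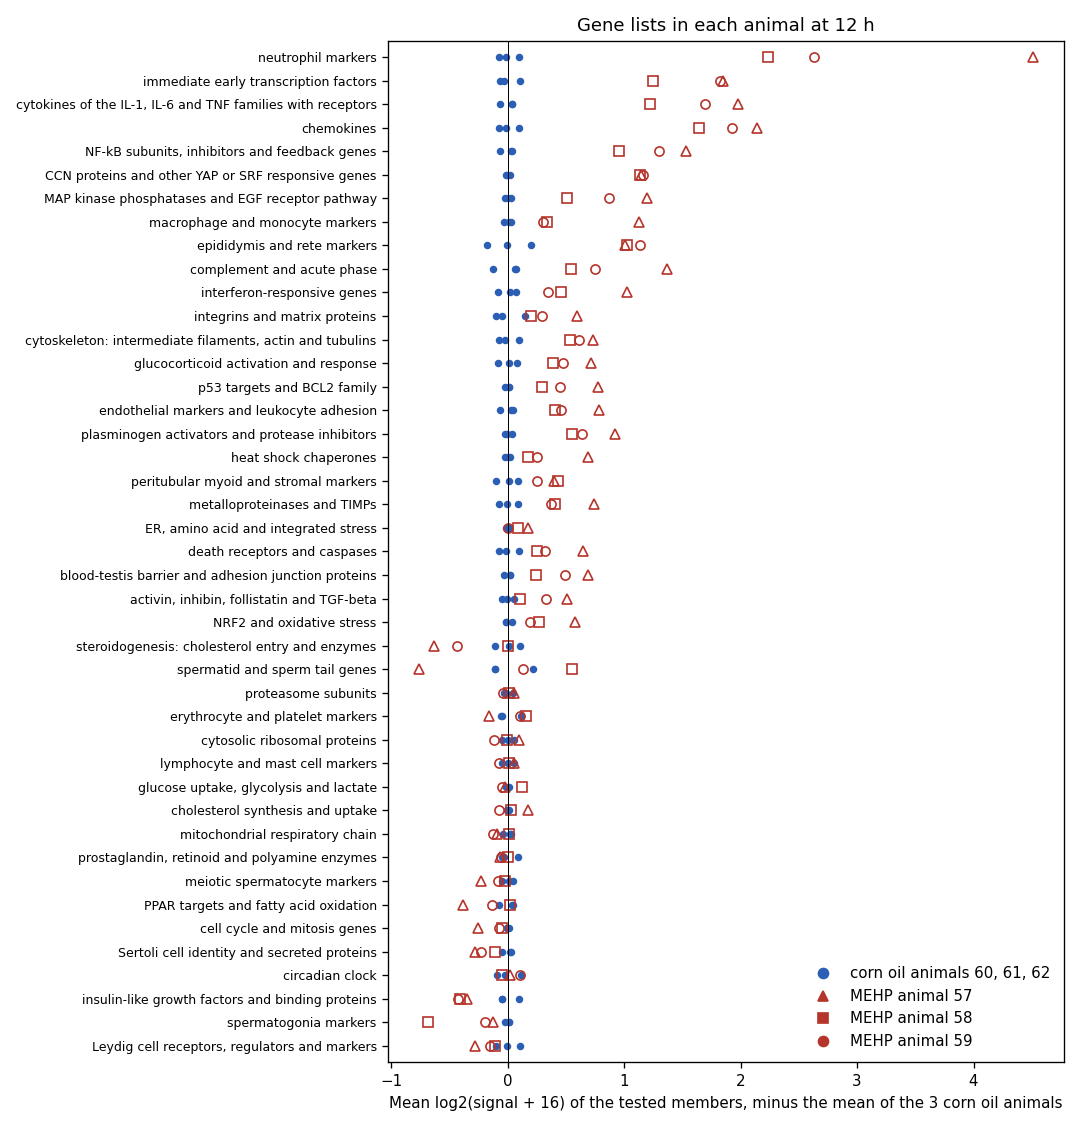
Mean log2(signal + 16) of the tested members of each list in each animal, minus the mean of the 3 corn oil animals (blue), for MEHP animals 57 (triangle), 58 (square) and 59 (circle). The 3 MEHP animals coincide for the YAP and SRF list (10.22 to 10.25), animal 57 lies apart for neutrophil and macrophage markers, and for spermatid genes 57 lies below and 58 above the corn oil animals.

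Some genes fell strongly without belonging to a list. Svs5, first known from seminal vesicle secretion, read 59.0, 444 and 167 against 1643, 1258 and 1635 (log2 difference -3.04 ± 0.45 (SE), adjusted p = 5.7e-05). Cmtm8, a membrane protein that dampens EGF receptor signalling, read 17.2, 126 and 42.4 against 295, 322 and 336 (log2 difference -2.36 ± 0.28 (SE), adjusted p = 3.1e-06). Lratd1 read 406, 638 and 428 against 1391, 1345 and 1642 (log2 difference -1.56 ± 0.14 (SE), adjusted p = 7.3e-08) and Cavin2, a protein of caveolae, read 66.7, 97.2 and 47.5 against 266, 287 and 259 (log2 difference -1.77 ± 0.23 (SE), adjusted p = 1.3e-05). No animal overlapped for these genes, which the rule that named Svs5, Cmtm8 and Cavin2 required. In the fit on the 6 arrays Lratd1 and Cavin2 were called, and Svs5 (adjusted p = 0.054) and Cmtm8 (0.067) were not. Among genes of high signal in both groups, Sdc4, a heparan sulfate proteoglycan of focal adhesions, read 15506, 5404 and 7216 against 1690.0, 1737 and 1665 (log2 difference 2.31 ± 0.27 (SE), adjusted p = 3.3e-06). S100a10 (2.05 ± 0.27), the prothrombinase Fgl2 (1.96 ± 0.26), the chloride channel protein Clic1 (1.88 ± 0.30), the tropomyosin Tpm4 (1.82 ± 0.26) and the calcineurin inhibitor Rcan1 (1.71 ± 0.20) rose among them. On the 6 arrays alone these 5 were not called (adjusted p = 0.091, 0.051, 0.13, 0.10 and 0.056), and Sdc4 was (0.029).

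The change at 12 h was set against those at 6 h and 3 h, which come from other animals. At 6 h 43 probe sets passed (0.203%), and 36 of these (83.7%) also passed at 12 h, 1.94% of the 12 h calls. At 3 h 9 passed (0.0425%), and all 9 passed at 12 h with the same direction. The difference between the 12 h and the 6 h change passed in 318 probe sets (1.5%), 215 above and 103 below, of which 308 were also called at 12 h. The difference from 3 h passed in 499 (2.35%). The 318 were 188 without animal 57, 180 and 194 without 60 and 62, and 869 without 58, and 101 with the RNA integrity number as a covariate.

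Of the 30 immediate early genes 7 were called at 6 h, and 3 of the 14 MAP kinase and EGF receptor genes. Ccn1 had 2.63 at 6 h and 3.48 at 12 h, and the difference of the changes did not pass (0.85 ± 0.32, adjusted p = 0.27). Cxcl1 had 5.02 and 6.31 (1.29 ± 0.58, adjusted p = 0.40), Dusp1 2.37 and 2.78 (adjusted p = 0.82), and Nfkbia 0.82 and 0.72 (adjusted p = 0.94). Myc had -0.04 at 6 h and 2.41 at 12 h (adjusted p = 0.0077), and Cebpd 1.18 and 2.87 (adjusted p = 0.018). Fst had 0.34 at 6 h and 4.24 at 12 h (3.90 ± 0.49, adjusted p = 2.8e-04), Plaur -0.09 and 3.48 (adjusted p = 0.0010), Krt19 0.06 and 3.48 (adjusted p = 7.4e-04), and Timp1 0.05 and 2.69 (adjusted p = 0.0032). Ccl2 had 0.53 and 5.25 (4.73 ± 0.80, adjusted p = 0.0032). Star was the 1 gene among the 36 shared calls whose sign differed, with -1.82 at 6 h (adjusted p = 0.041) and 1.38 at 12 h (3.21 ± 0.54, adjusted p = 0.0032). For Cyp17a1 the changes were -0.99 and -3.37, for Cyp11a1 -0.94 and -1.78, and for Hsd3b1 -0.61 and -1.32, and for these 3 the difference between times did not pass (adjusted p = 0.15, 0.62 and 0.23). Lratd1 (-0.03 and -1.56, adjusted p = 2.8e-04) and Dhcr7 (-0.45 and -1.39, adjusted p = 0.010) fell more at 12 h than at 6 h.

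**Figure D5:**
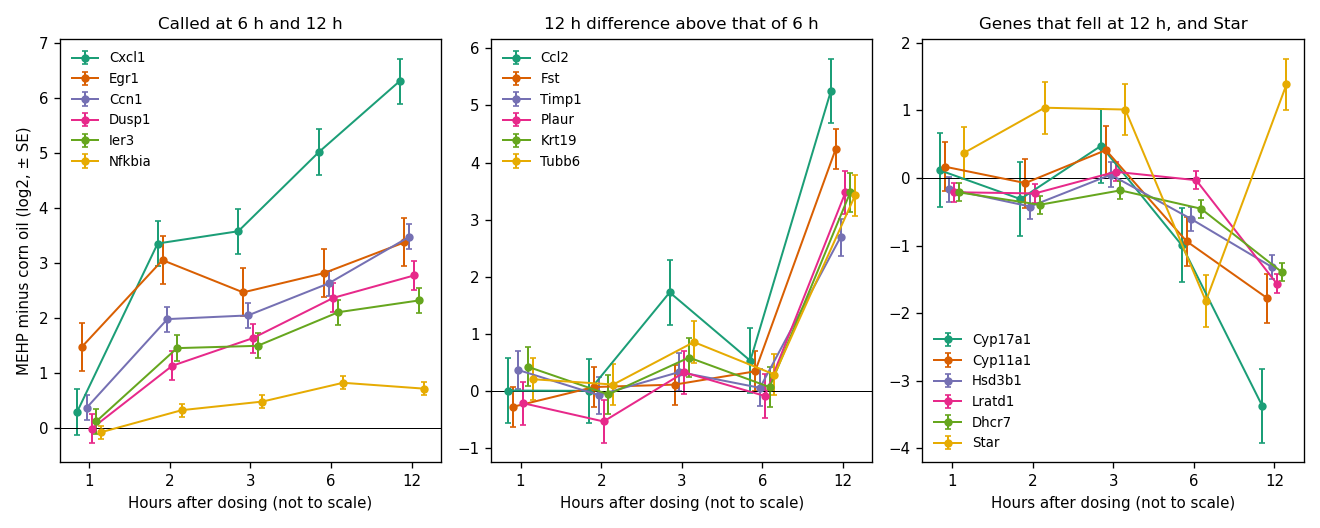
Change after MEHP (log2, ± SE, n = 3 animals per group at each time) at 1, 2, 3, 6 and 12 h, each against the corn oil animals of that time, for genes called at 6 h and 12 h (left), genes whose 12 h change was above that of 6 h (middle) and genes that fell at 12 h with Star (right). Cxcl1 and Ccn1 stand above 0 at 6 h, Fst, Timp1, Plaur, Krt19 and Tubb6 stay between -0.09 and 0.34 there, and Star lies at -1.82 at 6 h and 1.38 at 12 h.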

How the data were processed

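RNA of 30 testes was measured on 30 Affymetrix Rat230_2 arrays. The deposited values are intensities on a linear scale, 1 per probe set, made by the authors with GCOS 1.0 (from the submitters' processing notes). How probes were summarised is not given in the sources used here, and no scanner files were used. Of 31099 probe sets 57 controls were left out, and the 21190 at or above the 40th percentile of the array on at least 3 arrays were tested. Values were taken as log2(signal + 16) and fitted with limma 3.58.1 in R 4.3.3 (10 group means, 30 arrays, trended eBayes, Benjamini-Hochberg adjustment), after tests on simulated data. The simulated arrays shared 1 spread per probe set, so these tests do not cover the wider spread of the MEHP arrays of 12 h. Probe sets with 1 gene symbol in GEO's platform annotation were named, and a gene is its brightest one. Other probe sets of a gene are quoted for some genes only and can differ, as with -0.30 for Tjp1 against 0.12. Single values per array were compared by exact permutation in SciPy 1.17.1.

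Named genes are a part of those a rule gave. It took the largest changes among called genes without overlap between the groups, and list members of smallest p. It also took chosen sentinel genes and the largest differences between 12 h and 6 h. For genes named by largest change, a lack of overlap was thus fixed by the rule and is a description. Other list members were named as examples after their values were seen. The comparison and all gene lists were chosen with earlier results of these data known. P-values rest on the spread between animals shared by all 10 groups, and 3 per group limit the precision. Residual SDs (log2) were 0.516, 0.519 and 0.332 in animals 57, 58 and 59, and 0.22 to 0.239 in the corn oil animals of 12 h. The shared spread can thus understate that of the MEHP animals of 12 h, and standard errors and p-values from it can be too small. Alternatives changed the added constant, filter, normalization, trend, array weights, control group, covariates and single animals.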

Additional observations from a re-analysis of the deposited data

Results flagged for a closer look

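In 83 named genes the change at 12 h differed from that at 6 h by a limma contrast of the changes (adjusted p under 0.05), and these differences are given here on the log2 scale, 12 h minus 6 h. Over all probe sets tested, 318 (1.5%) passed. Some of the 83 were named because they passed this contrast and many others for their change at 12 h, so their number is no result. Those tested only through the MEHP arrays of 12 h, such as Fst, Plaur and Ccl20, had to be higher there. Groups of 3 are too small for the test of a single far sample. Chemokines above their 6 h change were Ccl2 (4.73), Ccl20 (4.64) and Ccl7 (3.68). Cytokine receptors and signalling genes were Il1r1 (1.77), Il1r2 (3.85), Il6r (1.54), Tnfrsf1a (2.25), Stat3 (1.79), Jak2 (1.29), Nfkb1 (1.62) and Nfkb2 (2.2). Among neutrophil, macrophage and acute phase genes they were S100a8 (4.15), S100a9 (4.44), Lcn2 (2.27), Lyz2 (2.24), Mrc1 (0.72), Saa3 (2.47) and Fgl2 (1.56). Interferon-responsive genes were Gbp4 (3.11), Gbp2 (1.96), Irf1 (1.18), Ifitm1 (1.13) and Ifitm3 (0.98), and genes of vessels and adhesion Icam1 (3.13), Vcam1 (2.35), Kdr (1.61) and Vegfa (1.57). Proteases and inhibitors were Timp1 (2.64), Plaur (3.57), Plat (1.79), Serpinb2 (2.84), Tfpi2 (2.2), A2m (1.46), Adamts1 (1.6) and Adamts4 (2.19). Genes of junctions, matrix and cytoskeleton above their 6 h change were Testin (3.0), Tes (2.07), Krt19 (3.41), Tubb6 (3.14), Tagln (1.3), Acta2 (1.15), Actg2 (1.08), Cald1 (0.93), Col4a1 (1.09) and S100a10 (1.79). Below it lay Gja1 (-0.86), Cldn5 (-0.81) and Cyp26b1 (-0.98). Of hormone genes, Fst (3.9), Star (3.21) and Hsd11b1 (1.66) were above and Nr0b1 (-1.52) below. Stress, death and growth genes above were Myc (2.45), Fas (2.22), Ripk3 (2.19), Cdkn1a (1.28), Gadd45b (1.55), Ugdh (2.39), Srxn1 (2.06), Nupr1 (1.37), Bag3 (1.59), Hspb1 (1.01), Cebpd (1.68) and Rcan1 (1.3), and below were Casp6 (-0.93) and Cdkn1b (-0.98). Clock genes differed both ways, with Nfil3 (2.03) and Bhlhe40 (1.91) above and Dbp (-1.01) and Npas2 (-1.09) below. Lipid, sulfate and sterol enzymes below were Fads1 (-1.34), Dhcr7 (-0.94) and Sult1a1 (-1.39). Other genes above were Sectm1b (4.01) and Calcb (3.77), and other genes below were Cmtm8 (-2.3), Cavin2 (-1.84), Arxes1 (-1.81), Nrep (-1.32), Lnx1 (-1.92), Lratd1 (-1.53), Paqr7 (-1.5) and Ethe1 (-1.48). With the RNA integrity number as a covariate 101 of all probe sets passed in place of 318, and 188 without animal 57.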

How the results depend on the processing

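No paired analysis was possible because every animal has a number of its own and no groups share numbers. The count of 1852 at 12 h (1072 higher, 780 lower) was 254 (223 and 31) on the 6 arrays alone. That fit has fewer animals to estimate the spread and no longer shares the spread of the other groups. Residual SDs (log2) were 0.516, 0.519 and 0.332 in MEHP animals 57, 58 and 59. They were 0.22 to 0.239 in the corn oil animals of 12 h. How much of the drop came from fewer animals and how much from wider spread was not tested. The count was 3615 (1636 and 1979) against the mean of all corn oil groups. Leaving out 1 animal at a time gave 1015 to 2686, with 623 to 1454 higher and 392 to 1232 lower. The 318 differences between 12 h and 6 h became 1029 with array weights, 101 with the RNA integrity number and 690 with gavage volume, and 180 to 869 without 1 animal. The 499 differences between 12 h and 3 h became 1831 with array weights, 289 with the RNA integrity number, 1314 with the hexokinase ratio and 1097 with gavage volume, and 278 to 997 without 1 animal. Where not stated, the cause was not tested. Of the 210 genes the rule named, 199 were called, of which 82 were called on the 6 arrays alone and 163 without animal 57. Of the 199, 0 turned sign under the alternatives run, but many of these could not turn a sign where the groups did not overlap. Genes of low corn oil signal depend most on the added 16.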

Other observations

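The values here were chosen after they were seen. In animal 57 several genes of myeloid cells and of secreted defence proteins stood far above every other array of the series. Ccl6, a chemokine of myeloid cells, read 1407.5 in animal 57 and at most 54.2 on the other 29 arrays. Chi3l1, a chitinase-like protein of activated macrophages, read 548 against at most 58.6, and Fcnb, a ficolin of neutrophils and monocytes, 682 against at most 57.6. Reg3g, a C-type lectin, read 1181 against at most 112, and Fcgr2b, an inhibitory antibody receptor, 1105 against at most 159.9. The hyaluronan receptor Cd44 read 656 against at most 135, and the growth factor Bmp6 1309 against at most 203. Tspan17, in the other direction, read 173 in animal 57 and at least 1064 elsewhere, and Ranbp6 136 against at least 770.5.

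Animal 58 was low in other genes when set against the other 5 animals of 12 h. Ccnd2, a cyclin of dividing cells that include spermatogonia, read 248 in animal 58 and 1676 to 2683 in the others. Foxo1, a factor of undifferentiated spermatogonia, read 15.3 against 189 to 338. Id2 read 127 against 545 to 1065, and Sycp1, a protein of the synaptonemal complex, 75.5 against 299 to 501.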
